A study of Mus musculus with 20 samples.

Results

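The small leucine-rich proteoglycans (SLRPs) are a family of secreted matrix proteins, and 10 of their genes were followed here in adipocyte progenitor cells (APCs): Dcn, Bgn, Lum, Fmod, Aspn, Ogn, Prelp, Omd, Podn and Ecm2. The genes were taken by symbol from a table of 27179 genes, where all 10 were found, and all 10 were among the 13057 genes tested (those averaging 10 or more normalized reads over the 20 libraries). RNA-seq had been run on PDGFRb+ cells freshly isolated by flow cytometry from inguinal white adipose tissue, the subcutaneous fat of the groin, of male C57BL/6 mice. The cells had been separated by the surface peptidase DPP4 into DPP4+ and DPP4- APCs. The mice had been kept at 22 °C or placed at 6 °C for 24 h. The 4 groups, each of 5 libraries, are DPP4+ cells at 22 °C, DPP4+ cells at 6 °C, DPP4- cells at 22 °C and DPP4- cells at 6 °C. All groups share the strain, the sex, the depot and the gate on PDGFRb, and no transgene or drug is named in the labels. The labels do not say whether the libraries of a group came from separate animals or from pools, so p-values refer to libraries. In the main tests the spread of a gene was estimated from all 4 groups together.

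SLRPs have a small core of leucine-rich repeats, and many carry chondroitin, dermatan or keratan sulfate chains or sulfated tyrosines. They bind to the surface of collagen fibrils and set fibril diameter and spacing, and several also hold growth factors such as TGF-β or act on cell surface receptors when they are set free. In fat depots the fibroblast-like progenitors of the stroma are a main source of collagen and of the proteoglycans that coat it.

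The genes lie in clusters on chromosomes 13, 10 and 1 and as single genes on chromosomes 4 and X. Ecm2, Aspn, Omd and Ogn stand side by side on the plus strand of chromosome 13, between 49504810 and 49624501 (GRCm38, RefSeq), a span of 119.7 kb. Dcn (97479500 to 97518163) and Lum (97565501 to 97572703) are neighbours on chromosome 10. Prelp (133910304 to 133930102, minus strand) and Fmod (134037254 to 134048280) are neighbours on chromosome 1, Podn lies on chromosome 4 (108014793 to 108031954, minus strand) and Bgn on chromosome X (73483601 to 73495936). The 4 genes of chromosome 13 lie inside the Cenpp gene, which is transcribed from the opposite strand. Exons of Cenpp share 7 bases with those of Aspn and 0 with those of Ecm2, Omd and Ogn, while a non-coding gene antisense to Prelp, Gm15851, shares 350 bases, 9.68% of the exon bases of Prelp. The strand setting of the counting is not given in the sources used here, so reads of such partners cannot be told apart.

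The cold effect on the 4 genes of chromosome 13 was called as different between the 2 populations, in a test that called 33.2% of all genes. A count of 4 of 10 members is near that share. For Ecm2 the call was lost under 19 and for Ogn under 5 of 32 alternatives. The 250 bases before the start site of each of the 4 genes are printed here from RefSeq (GRCm38.p6, plus strand, 5′ to 3′). Capitals mark matches, on either strand, to the TATA box (TATAAA), the CCAAT box, the GC box (GGGCGG), the motif GGAATG known from TEAD factors and the motif TGTGGT known from RUNX factors. The windows are chr13:49504560-49504809 for Ecm2, chr13:49544193-49544442 for Aspn, chr13:49582212-49582461 for Omd and chr13:49607765-49608014 for Ogn.
Ecm2: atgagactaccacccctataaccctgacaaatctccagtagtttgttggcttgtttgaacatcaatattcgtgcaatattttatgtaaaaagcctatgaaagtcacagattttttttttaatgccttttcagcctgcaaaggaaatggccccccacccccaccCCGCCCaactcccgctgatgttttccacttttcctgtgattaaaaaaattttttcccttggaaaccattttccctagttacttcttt
Aspn: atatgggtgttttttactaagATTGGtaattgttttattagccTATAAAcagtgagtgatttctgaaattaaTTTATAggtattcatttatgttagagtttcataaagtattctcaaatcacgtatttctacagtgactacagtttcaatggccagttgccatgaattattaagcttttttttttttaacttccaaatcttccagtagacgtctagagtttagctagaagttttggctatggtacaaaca
Omd: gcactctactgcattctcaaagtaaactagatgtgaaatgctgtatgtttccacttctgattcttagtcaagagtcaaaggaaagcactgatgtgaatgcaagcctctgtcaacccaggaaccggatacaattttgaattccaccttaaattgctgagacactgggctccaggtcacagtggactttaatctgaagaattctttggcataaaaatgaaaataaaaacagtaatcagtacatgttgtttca
Ogn: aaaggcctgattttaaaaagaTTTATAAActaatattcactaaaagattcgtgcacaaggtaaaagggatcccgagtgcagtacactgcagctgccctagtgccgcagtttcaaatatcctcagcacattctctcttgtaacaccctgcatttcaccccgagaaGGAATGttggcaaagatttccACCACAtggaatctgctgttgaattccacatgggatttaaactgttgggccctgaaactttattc
All 4 windows were poor in G and C, with 40.0% in Ecm2, 30.0% in Aspn, 38.4% in Omd and 42% in Ogn, against a median of 52.4% over 32851 mouse promoter windows of this length. The members elsewhere that have an entry had 51.2% (Fmod), 55.6% (Prelp) and 64.4% (Bgn), and Podn, with 2 start sites, had 78.0% and 64.0%. Dcn and Lum have no entry in the table. Aspn and Ogn each held 2 matches to TATAAA, which 12.4% of all windows hold. The matches in Ogn overlap each other on opposite strands. Aspn also held CCAAT (33.8% of all windows), Ogn held GGAATG (12.6%) and TGTGGT (14.0%), and Ecm2 held GGGCGG (32.7%). The other motifs searched were the AP-1 motif TGANTCA (6.75% of all windows), the cAMP response element TGACGTCA (1.55%), the E-box CACGTG (6.02%), the SMAD motif CAGAC (42.2%) and the CArG box of serum response factor (1.47%), which had 0 matches in these 4 windows, and Omd matched none of the motifs.

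Per kilobase of its longest coding transcript, Dcn, which encodes decorin, was the most abundant member in each of the 4 groups, at 34053 ± 3773 normalized reads per kb in DPP4+ cells and 75357 ± 3882 in DPP4- cells at 22 °C (SD, n = 5). In DPP4+ cells at 22 °C the order of level per kb then ran Bgn (7068 ± 732), Ogn (5079 ± 543), Prelp (3786 ± 154), Aspn (1084 ± 173), Lum (888 ± 185), Podn (461 ± 46.9), Ecm2 (204 ± 22.0), Omd (167 ± 27.1) and Fmod (88.5 ± 7.66). Aspn and Lum, and Ecm2 and Omd, were closer than their SDs added together. In DPP4- cells at 22 °C, Lum was second at 11008 ± 630 normalized reads per kb and was followed by Bgn (9208 ± 896), Ogn (4736 ± 292), Prelp (2715 ± 210), Podn (2046 ± 114), Aspn (1852 ± 193), Ecm2 (1030 ± 55.3), Omd (67.6 ± 11.2) and Fmod (59.3 ± 18.4). There Podn and Aspn, and Omd and Fmod, were closer than their SDs added together. Bgn moved from place 2 to place 4 in DPP4+ cells and from place 3 to place 4 in DPP4- cells when the length of all its annotated exons was used. The 10 genes together took 0.972 to 1.03% of the normalized reads of a library in DPP4+ cells at 22 °C and 0.779 to 1.01% at 6 °C, against 1.23 to 1.35% and 1.07 to 1.24% in DPP4- cells.

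Reads assigned to genes numbered 8.49 to 18.8 M per library (1 M is 1e+06). Dpp4 had 8546 ± 1158 normalized reads in DPP4+ cells and 67.9 ± 21.6 in DPP4- cells at 22 °C, 126-fold higher, and 164-fold higher at 6 °C. Pdgfrb was read in both populations at 22 °C, with 2942 ± 226 and 4126 ± 333. Its level was not steady in the cold in DPP4+ libraries, with 2743 to 3297 normalized reads at 22 °C and 1379 to 1592 at 6 °C. In DPP4- libraries Pdgfrb ranged from 3670 to 4487 at 22 °C and from 3451 to 4826 at 6 °C. The totals of normalized reads were 10.2 to 12.1 M in DPP4+ libraries and 15.4 to 17.3 M in DPP4- libraries. Setting the totals equal therefore moved the median log2 difference of all genes tested from 0.03 to 0.64 between the populations at 22 °C, from 0.03 to 0.50 at 6 °C and from 0.01 to -0.13 for the difference of the cold effects.

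**Figure D1:**
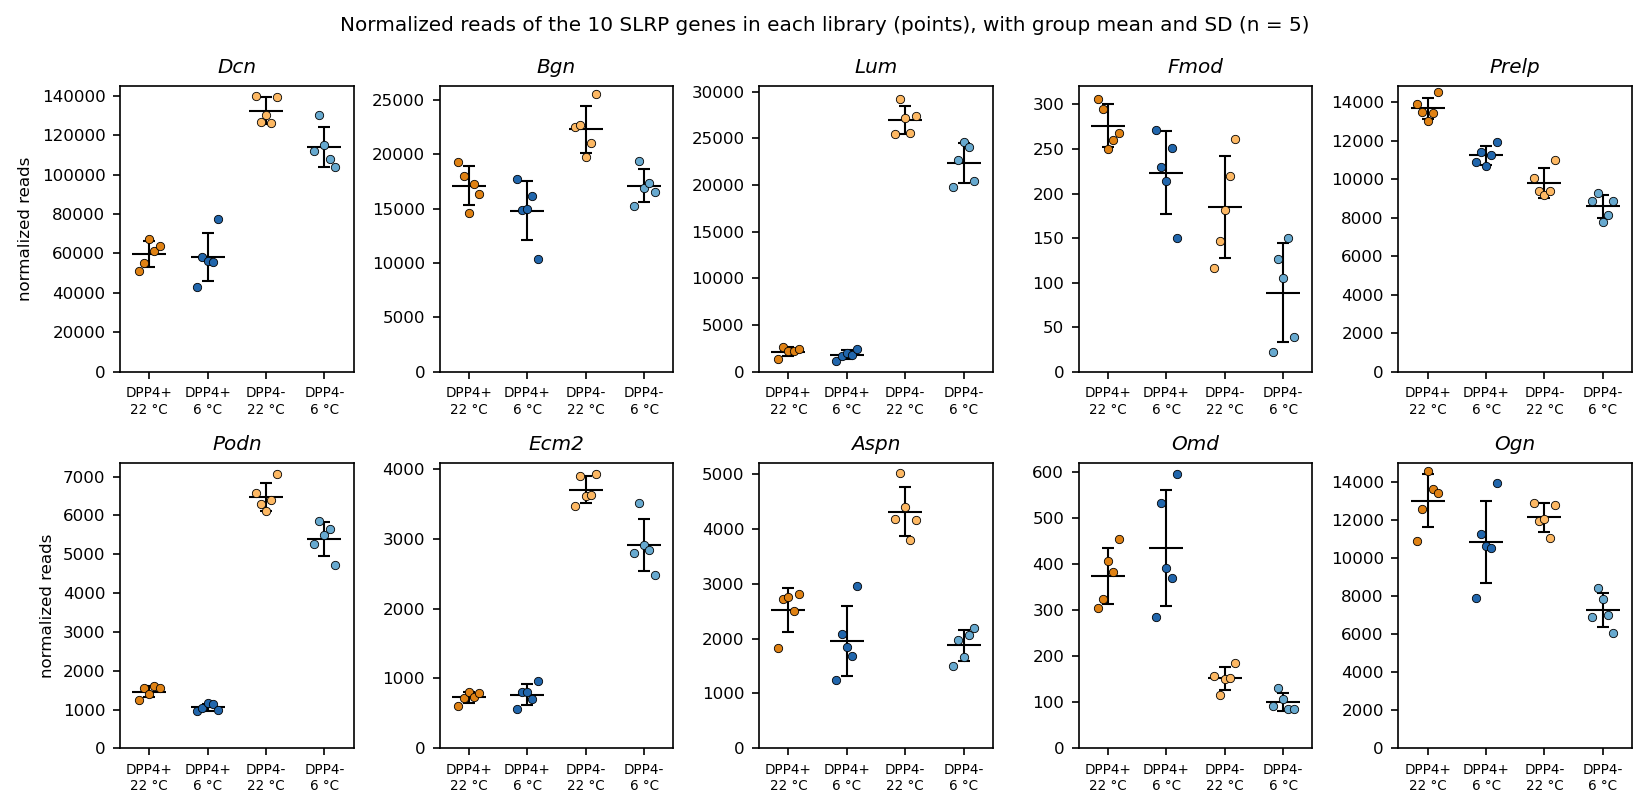
Each panel shows 1 of the 10 genes, with the normalized reads of each of the 5 libraries of a group as a point (linear axis from 0) and the group mean and SD as a bar and whiskers. Lum, Podn, Ecm2 and Dcn sit far lower in both DPP4+ groups than in both DPP4- groups, and Omd and Prelp sit higher.

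Between the populations at 22 °C, 6 SLRP genes were lower and 2 were higher in DPP4+ than in DPP4- cells, and the other two did not pass the test. The largest gap was that of Lum, which encodes lumican, a keratan sulfate SLRP that binds fibrils of collagen I. At this temperature 74.9% of all genes tested were called, 38.7% higher and 36.2% lower in DPP4+ cells (9107 genes higher and 2039 lower with totals set equal, against 5052 and 4730), so a count of 8 of 10 is near that of genes at large. The median log2 difference of the members was -0.58, against 0.03 for all genes tested.

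Lum had 1415, 2609, 2246, 2199 and 2399 normalized reads in the DPP4+ libraries and 25436, 29193, 27117, 25562 and 27428 in the DPP4- libraries at 22 °C. Every DPP4- library was far above every DPP4+ library, and library 1 was the low one among the DPP4+ libraries. Lum was 12.4-fold lower in DPP4+ cells by group means (log2 difference -3.66, SE 0.16, adjusted p = 1.64e-14), and 12.1-fold lower at 6 °C (log2 difference -3.63). In Ecm2, which encodes a matrix protein with leucine-rich repeats that is grouped with this family, the DPP4+ libraries at 22 °C held 611, 716, 810, 734 and 796 normalized reads and the DPP4- libraries 3465, 3897, 3613, 3623 and 3925. These groups did not overlap either, and Ecm2 was 5.05-fold lower in DPP4+ cells at 22 °C (log2 difference -2.34, SE 0.11, adjusted p = 2.06e-14) and 3.78-fold lower at 6 °C. Podn encodes podocan, which binds collagen and was first known from kidney glomeruli. It had 1233, 1542, 1389, 1596 and 1543 normalized reads in DPP4+ libraries and 6571, 6292, 6114, 6395 and 7060 in DPP4- libraries, with no overlap. Podn was thus 4.44-fold lower in DPP4+ cells at 22 °C (log2 difference -2.15, SE 0.07, adjusted p = 1.49e-17) and 5.10-fold lower at 6 °C.

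Dcn, the dermatan or chondroitin sulfate SLRP that binds collagen fibrils and TGF-β, ranged from 51054 to 67575 normalized reads in DPP4+ libraries and from 126161 to 140085 in DPP4- libraries at 22 °C. It was 2.21-fold lower in DPP4+ cells (log2 difference -1.15, adjusted p = 3.42e-09) and 1.96-fold lower at 6 °C, while the log2 difference at 22 °C was -0.54 with totals set equal and 0.02 with quantile normalization. Aspn encodes asporin, which has a run of aspartate residues and binds collagen and TGF-β. Aspn ranged from 1832 to 2808 normalized reads in DPP4+ and from 3807 to 5023 in DPP4- libraries at 22 °C (log2 difference -0.78, adjusted p = 0.000495), but with totals set equal the log2 difference was -0.17 and not called. Bgn, encoding biglycan, a relative of decorin that can signal through Toll-like receptors when soluble, was 1.30-fold lower in DPP4+ cells at 22 °C (log2 difference -0.38, adjusted p = 0.00347), and its direction turned with totals set equal (0.23) and with quantile normalization (0.39).

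The genes higher in DPP4+ cells at both temperatures were Omd and Prelp. Omd encodes osteomodulin, a keratan sulfate SLRP best known from bone and tooth. Its libraries held 305, 324, 406, 382 and 455 normalized reads in DPP4+ cells and 157, 116, 150, 152 and 186 in DPP4- cells at 22 °C. All DPP4+ libraries were above all DPP4- libraries, and Omd was 2.46-fold higher at 22 °C (log2 difference 1.30, SE 0.17, adjusted p = 8.71e-07) and 4.36-fold higher at 6 °C. Prelp encodes a basic SLRP that links basement membranes to collagen. It had 13921, 13481, 13048, 13471 and 14513 normalized reads in DPP4+ libraries and 10094, 9392, 9175, 9391 and 11023 in DPP4- libraries at 22 °C, again with no overlap. Prelp was 1.39-fold higher in DPP4+ cells at 22 °C (log2 difference 0.48, SE 0.07, adjusted p = 4.94e-07) and 1.31-fold higher at 6 °C.

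At 6 °C, 4 members were called higher and 4 lower in DPP4+ cells (74.2% of all genes tested were called, 38.5% higher and 35.7% lower, or 5031 and 4662 genes, but 8240 and 2461 with totals set equal), and the median log2 difference was -0.10 against 0.03 for all genes. Besides Omd and Prelp, Fmod and Ogn were called higher there. Fmod encodes fibromodulin, a keratan sulfate SLRP that competes with lumican for sites on collagen. In DPP4+ libraries at 6 °C it had 272, 230, 214, 252 and 150 normalized reads and in DPP4- libraries 22.8, 127, 105, 151 and 38.7. The lowest DPP4+ library lay just under the highest DPP4- library, and the fitted log2 difference was 1.61 (SE 0.40, adjusted p = 0.00138). Ogn encodes osteoglycin, also called mimecan. At 6 °C it was 1.49-fold higher in DPP4+ cells (log2 difference 0.56, SE 0.11, adjusted p = 8.93e-05), and at 22 °C its log2 difference was 0.10 with a 95% interval from -0.14 to 0.33. Bgn (-0.22, interval -0.45 to 0.01) and Aspn (0.02, interval -0.35 to 0.38) were not called at 6 °C. The direction of Bgn turned there with totals set equal (0.25, adjusted p = 0.0696) and with quantile normalization, which called it higher (0.44, adjusted p = 0.0116). Counted as non-overlapping groups of 5, 2 members were higher and 6 lower at 22 °C (64.8% of all genes, 33.4% higher and 31.4% lower), and 2 were higher and 4 lower at 6 °C (57.1% of all genes, 29.8% higher and 27.4% lower).

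Expressed as a share of all normalized reads of a library, 4 genes were higher (Fmod, Ogn, Prelp and Omd) and 4 lower (Dcn, Lum, Podn and Ecm2) in DPP4+ cells at each temperature by an exact two-sided permutation test of 5 against 5 libraries. Each had an exact permutation p of 0.00794, the smallest that the design allows, and an adjusted p of 0.0144 over 40 tests. Dcn, for example, took a mean of 0.541% of a DPP4+ library and 0.784% of a DPP4- library at 22 °C. Taking shares sets totals equal, which raised the median log2 difference of all genes to 0.64 at 22 °C and 0.50 at 6 °C. The permutation test was run on SLRP genes only, so these counts have no share of all genes beside them. With the deposited values limma called neither Fmod (log2 difference 0.63, adjusted p = 0.160) nor Ogn (0.10, adjusted p = 0.446) at 22 °C. Bgn and Aspn, which limma called lower there, did not pass as shares. In bulk samples, fewer cells of a type and less RNA per cell cannot be told apart.

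**Figure D2:**
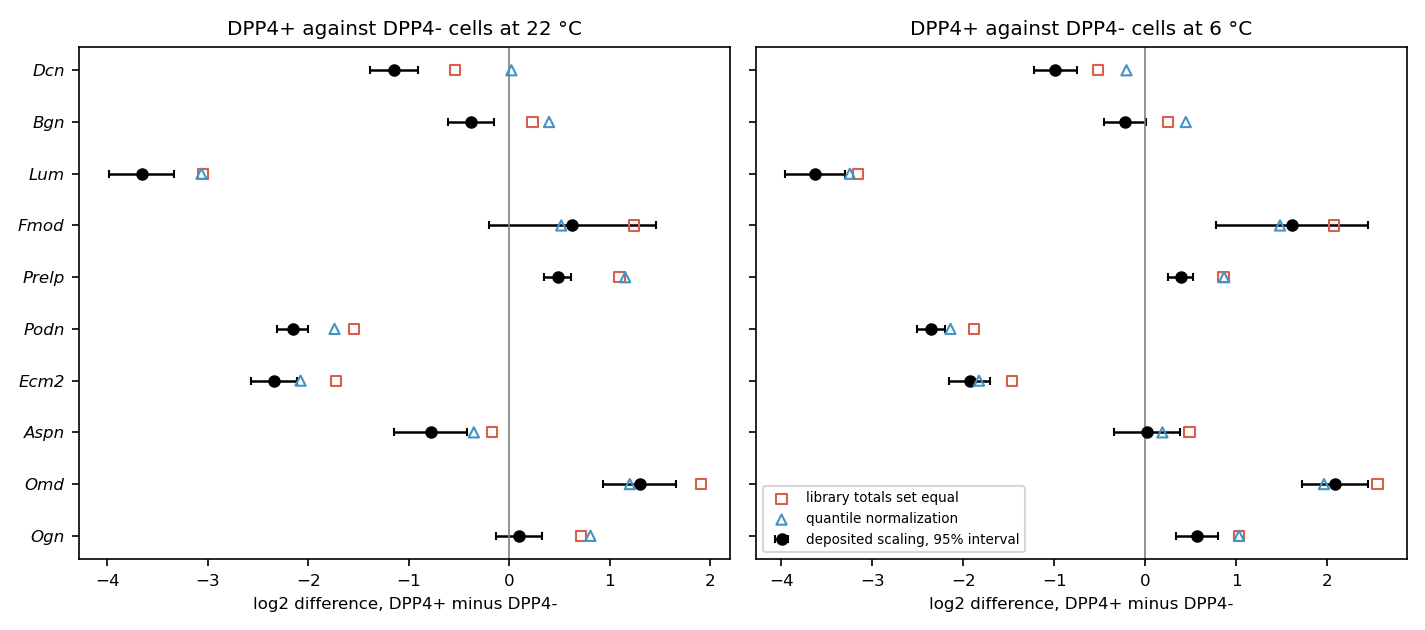
The log2 difference between DPP4+ and DPP4- cells is plotted for each gene at 22 °C and at 6 °C, as fitted on the deposited values (black points with 95% intervals), with library totals set equal (squares) and with quantile normalization (triangles). Lum, Podn and Ecm2 stay below 0 and Omd and Prelp above 0 under each scaling, while Bgn moves from -0.38 to 0.23 and 0.39 at 22 °C.

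All SLRP genes whose level was called as changed by cold were lower at 6 °C, in both populations. In DPP4- cells 5 of 10 were called lower at 6 °C (Ogn, Aspn, Podn, Bgn and Omd), where 5.22% of all genes tested were called and 3.23% were called lower (422 lower and 259 higher, but 227 and 915 with totals set equal). The share called higher was 1.98%. The median log2 difference of the members was -0.37, against 0.00 for all genes tested. In DPP4+ cells 3 of 10 were called lower (Podn, Prelp and Ogn), where 46.1% of all genes were called and 22.6% were called lower, a share close to that of the members. The median of the members was -0.26, against 0.01. No member was called higher in either population by limma, edgeR or DESeq2. Of the members, 4 in DPP4+ and 8 in DPP4- cells had an unadjusted p under 0.05, all with values below 0. The share of all genes at an unadjusted p under 0.05 is not given here, so such counts are not set against one.

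Aspn had the largest called fall. Its normalized reads in DPP4- cells were 4174, 5023, 4396, 3807 and 4169 at 22 °C and 1504, 1967, 1661, 2067 and 2193 at 6 °C. The lowest library at 22 °C lay far above the highest at 6 °C. By group means Aspn was 2.30-fold lower in the cold (log2 difference -1.21, SE 0.17, adjusted p = 0.000609), and 0.322% of all genes tested had a larger log2 difference in DPP4- cells. Ogn in DPP4- cells had 12889, 11938, 12062, 11056 and 12821 normalized reads at 22 °C and 6919, 8434, 7871, 7030 and 6093 at 6 °C. These groups did not overlap, and Ogn was 1.67-fold lower (log2 difference -0.75, SE 0.11, adjusted p = 0.000464). The calls of Aspn and Ogn held under each of the 23 alternatives, with log2 differences of at most -1.09 and -0.63.

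The other three calls in DPP4- cells were close to the threshold. Omd had 157, 116, 150, 152 and 186 normalized reads at 22 °C and 91.2, 131, 107, 84.7 and 86.4 at 6 °C (log2 difference -0.60, SE 0.17, adjusted p = 0.0462). Its groups overlapped through library 2 of each temperature. Podn ranged from 6114 to 7060 and from 4726 to 5854 (log2 difference -0.27, SE 0.07, adjusted p = 0.0366), and Bgn from 19720 to 25509 and from 15208 to 19388 (log2 difference -0.38, SE 0.11, adjusted p = 0.0448), both without overlap. Leaving out single libraries changed the count of 5 to between 2 and 7 (2 without library 1, 4 or 5 at 22 °C or library 1, 3 or 5 at 6 °C, and 3 without library 2 at 22 °C). Without library 2 at 6 °C, in which granulocyte and mast cell markers summed to 1860 normalized reads against 11.5 to 126 in the other four, 7 were called lower. Their part in the result was not tested otherwise.

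The remaining members in DPP4- cells had values below 0 that did not pass the test. Ecm2 ranged from 3465 to 3925 at 22 °C and from 2488 to 3515 at 6 °C (-0.36, adjusted p = 0.0615), and Prelp from 9175 to 11023 and from 7797 to 9273 (-0.19, adjusted p = 0.0888). Lum ranged from 25436 to 29193 and from 19776 to 24624, which do not overlap (-0.28, adjusted p = 0.331), and Dcn from 126161 to 140085 and from 103977 to 130213 (-0.22, adjusted p = 0.282, but 0.042 with quantile normalization). Fmod had 116, 147, 181, 220 and 261 normalized reads at 22 °C and 22.8, 127, 105, 151 and 38.7 at 6 °C. It was spread widely in both groups, and its log2 difference of -1.31 had an SE of 0.40 and an adjusted p of 0.0637. Non-overlapping groups numbered 5, all lower (Bgn, Lum, Aspn, Ogn and Podn), against 4.87% of all genes in either direction and 3.22% lower.

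Markers of other cell types also moved between the temperatures. In the cold 46.1% of all genes tested were called in DPP4+ cells and 5.22% in DPP4- cells. Counts of called markers are to be read beside these shares. The 8 tenocyte and cartilage markers, none of them at 0 in a whole group, summed to 489 to 561 normalized reads in DPP4+ libraries at 22 °C and 254 to 274 at 6 °C, and to 3285 to 3740 and 2450 to 3129 in DPP4- libraries. Of the 5 tested, Sox9 was called lower in both populations and Comp in DPP4- cells, and Sox9 made up most of each sum, with 428 ± 21.9 and 159 ± 17.2 normalized reads in DPP4+ cells and 3321 ± 230 and 2516 ± 304 in DPP4- cells. The tendon gene Tnmd was low, at 9.26 to 18.0 normalized reads in the group means. The 12 mature adipocyte markers, 9 of them tested and none at 0 in a whole group, summed to 2036 to 2642 at 22 °C and 1058 to 1693 at 6 °C in DPP4+ libraries, where 2 were called lower, and to 2389 to 4294 and 3834 to 5528 in DPP4- libraries, where 2 were called higher. The 8 pericyte markers, 7 of them tested, summed to 558 to 671 and 561 to 732 in DPP4+ libraries, with 2 called in each direction, and to 4019 to 5126 and 4846 to 6249 in DPP4- libraries, with 0 called by limma and Higd1b at 0 at 22 °C. Of the 7 smooth muscle markers, all tested, 4 were called lower in DPP4+ cells, with a median log2 difference of -0.99, and 0 in DPP4- cells. Of the other lists, limma called 2 endothelial markers higher and 1 lower (10 tested) in DPP4+ cells. There it also called 1 macrophage marker higher (4 tested), 1 lymphocyte marker lower (1 tested) and 2 Schwann cell markers lower (6 tested). In DPP4- cells 1 mesothelial marker was called higher (2 tested). The mesothelial sum there was 22.7 to 49.1 normalized reads at 22 °C and 52.3 to 91.3 at 6 °C. The part of these cell types in the cold values of the SLRP genes was not tested.

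In DPP4+ cells Podn had 1233, 1542, 1389, 1596 and 1543 normalized reads at 22 °C and 956, 1047, 1167, 1131 and 993 at 6 °C. Every cold library was below every library at 22 °C, and Podn was 1.38-fold lower (log2 difference -0.46, SE 0.07, adjusted p = 1.95e-05). Prelp had 13921, 13481, 13048, 13471 and 14513 normalized reads at 22 °C and 10885, 11432, 10714, 11260 and 11964 at 6 °C. It too was apart in all libraries and was 1.22-fold lower (log2 difference -0.28, SE 0.07, adjusted p = 0.00107). These 2 were the members whose groups did not overlap in DPP4+ cells (38.4% of all genes, 19.0% lower).

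Ogn was at 10896, 12590, 14611, 13627 and 13433 normalized reads at 22 °C and at 7911, 11259, 10669, 10518 and 13946 at 6 °C in DPP4+ cells. The groups overlapped, and its call (log2 difference -0.28, SE 0.11, adjusted p = 0.0453) was lost without 8 of 10 libraries taken one at a time. Aspn had 1832, 2717, 2757, 2508 and 2808 normalized reads at 22 °C and 1240, 2081, 1843, 1676 and 2968 at 6 °C. Library 5 at 6 °C was the highest of all, and the log2 difference of -0.41 had an adjusted p of 0.0655. The other members not called in DPP4+ cells were Fmod (-0.33), Lum (-0.24), Bgn (-0.22), Dcn (-0.06, interval -0.30 to 0.18), Ecm2 (0.05, interval -0.18 to 0.28, but -0.031 with quantile normalization) and Omd (0.18, interval -0.18 to 0.55). Without library 1 at 22 °C, 5 members were called lower in DPP4+ cells, Aspn and Lum in addition.

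**Figure D3:**
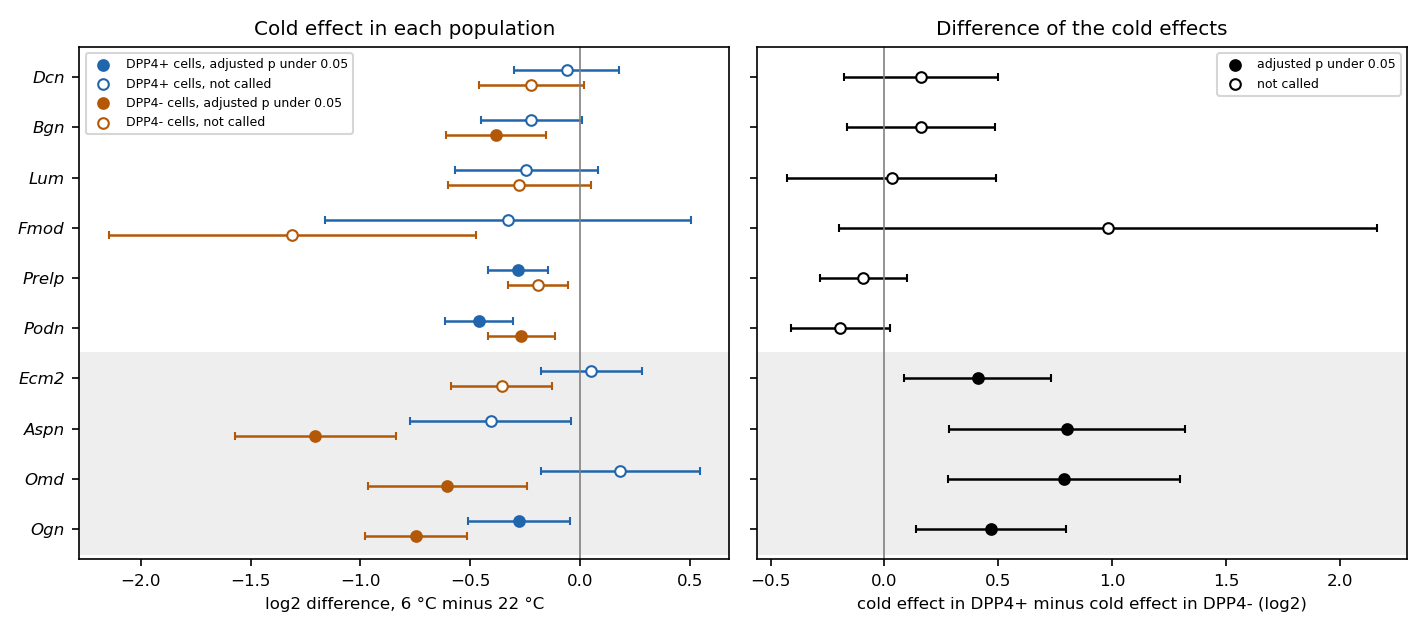
The left panel gives the log2 difference between 6 °C and 22 °C for each gene in DPP4+ (blue) and DPP4- cells (brown), and the right panel the difference of these effects, all with 95% intervals and with filled points where the adjusted p is under 0.05. The grey band holds the 4 genes of chromosome 13, whose differences of 0.41 to 0.80 are all called.

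The cold effect differed between the populations in 4 members, and these were the 4 genes of the chromosome 13 cluster. None of the 6 members elsewhere passed the test of the difference. A count of 4 of 10 is near the share of all genes called in either direction. Over all genes 33.2% were called in this test, 16.8% as higher in DPP4+ cells (2192 higher and 2137 lower, but 1128 and 3060 with totals set equal), and the median of the members was 0.29, against 0.01. The difference, DPP4+ minus DPP4-, was 0.80 for Aspn (SE 0.25, adjusted p = 0.0180), 0.79 for Omd (SE 0.25, adjusted p = 0.0175), 0.47 for Ogn (SE 0.16, adjusted p = 0.0259) and 0.41 for Ecm2 (SE 0.16, adjusted p = 0.0478). Aspn and Ogn fell more in DPP4- cells than in DPP4+ cells, and Omd fell in DPP4- cells while its mean in DPP4+ cells was 375 ± 61.0 normalized reads at 22 °C and 436 ± 126 at 6 °C. The Ecm2 fits were below 0 in DPP4- cells and near 0 in DPP4+ cells, neither of them called.

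The sign of all 4 differences stayed above 0 under each alternative, but the calls did not all hold. Omd remained called under each of the 32 alternatives. Aspn was called under all but quantile normalization (0.54, adjusted p = 0.101). Ogn was not called with totals set equal (0.32, adjusted p = 0.0556), with TMM scaling (0.42, adjusted p = 0.0512) or with quantile normalization (0.22, adjusted p = 0.201). Ecm2 was not called under 19 of the 32, with a range of 0.25 to 0.52. Without library 1 of DPP4+ cells at 22 °C or library 5 of DPP4- cells at 6 °C, 2 of the 4 were called. With totals set equal, Podn (-0.34, adjusted p = 0.00768) and Prelp (-0.24, adjusted p = 0.0429) passed in the other direction. For Fmod the difference was 0.98 with an interval from -0.20 to 2.16, so a difference as large as those of Aspn and Omd lies within its error.

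Cenpp, the centromere protein gene that encloses the cluster, was named for its position, and its level was low. It had a mean of 27.4 ± 3.71 normalized reads in DPP4+ cells at 22 °C and 8.87 ± 3.06 at 6 °C (log2 difference -1.57, adjusted p = 0.000129), and 9.89 ± 4.55 and 6.49 ± 1.95 in DPP4- cells, where it was not called. Its difference of cold effects was -1.11 (adjusted p = 0.0452), opposite in sign to those of the 4 SLRP genes, and this call was lost without 14 of 20 libraries taken one at a time. Within 300 kb of the cluster on either side, 6 other genes were tested. For the difference, where 33.2% of all genes were called, 1 was called higher (Card19, 0.67) and 1 lower (Cenpp). Bicd2, Ippk, Nol8 and Iars were not called. In DPP4- cells none of these 6 was called in the cold, against 5.22% of all genes. The log2 difference there was -0.46 for Cenpp and 0.25 for Ippk. Around Fmod and Prelp on chromosome 1, 4 of 6 tested neighbours were called for the difference, all higher, against 16.8% of all genes called higher. They were Atp2b4 (0.72), Zbed6 (0.39), Zc3h11a (0.37) and Tmem183a (0.25), while Fmod and Prelp were not called. Zbed6 (133655879 to 133660885) lies within Zc3h11a (133619862 to 133661399), so these are not separate in position. In DPP4- cells limma called 2 of the 6 lower in the cold, Atp2b4 (-0.52, adjusted p = 0.000657) and Zbed6 (-0.25, adjusted p = 0.0454). The call of Tmem183a was lost without 9 of 20 libraries taken one at a time.

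**Figure D4:**
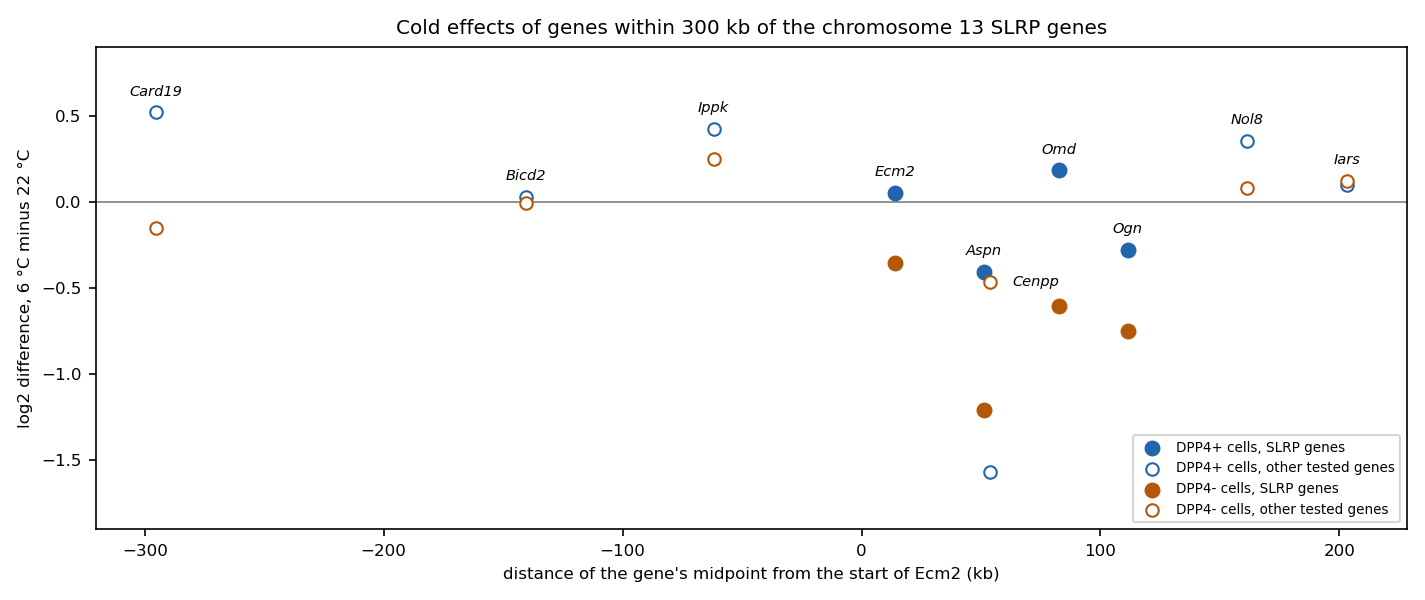
Cold effects (log2 difference, 6 °C minus 22 °C) of the tested genes within 300 kb of the chromosome 13 SLRP genes are plotted at the distance of each gene's midpoint from the start of Ecm2, in kb. For Ecm2, Aspn, Omd and Ogn (filled points) the DPP4- value lies below the DPP4+ value, and for Cenpp it lies above.

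Libraries of 1 group differed from each other in a way that most members shared. In DPP4+ cells at 22 °C, library 1 was the lowest of the 5 for 7 of 10 members, and at 6 °C library 1 was again the lowest for 7, while library 5 was the highest for 7. Bgn and Fmod went the other way: both were highest in library 1 of each temperature, and at 6 °C both were lowest in library 5. For Dcn at 6 °C library 5 stood at 133% and library 1 at 74.4% of the group mean, whereas for Bgn they stood at 70.2% and 119% and for Fmod at 67.3% and 122%. Acta2, the smooth muscle actin gene, shown because it was seen to move alike, stood at 66.2% in library 5 and 121% in library 1, and Dpp4 at 132% and 78.4%. The 7 smooth muscle markers, all tested, summed to 9181 to 12227 normalized reads in DPP4+ libraries at 22 °C and to 3971 to 7043 at 6 °C, with the extremes in libraries 3 and 1 and in libraries 5 and 1. Their part in the cold values of Bgn and Fmod was not tested.

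In DPP4- cells the coefficient of variation was lower than in DPP4+ cells for all members but Fmod, Prelp and Omd at 22 °C and for all but Fmod and Prelp at 6 °C. That of Fmod was 31.0% at 22 °C and 62.7% at 6 °C, against 5.15% and 8.89% for Dcn. At 6 °C Fmod stood at 25.7% of its group mean in library 1 and at 43.5% in library 5, and Acta2 at 36.1% and 35.1% in the same libraries. At 22 °C both were lowest in library 1, with 62.8% for Fmod and 35.6% for Acta2. The smooth muscle markers summed to 316 to 844 normalized reads in DPP4- libraries at 22 °C and 387 to 999 at 6 °C, far below the DPP4+ libraries. Whether they bear on the spread of Fmod was not tested. The steadiest member over the groups was Prelp, with coefficients of variation of 4.06, 4.36, 7.74 and 7.03% in the order of groups given at the start.

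**Figure D5:**
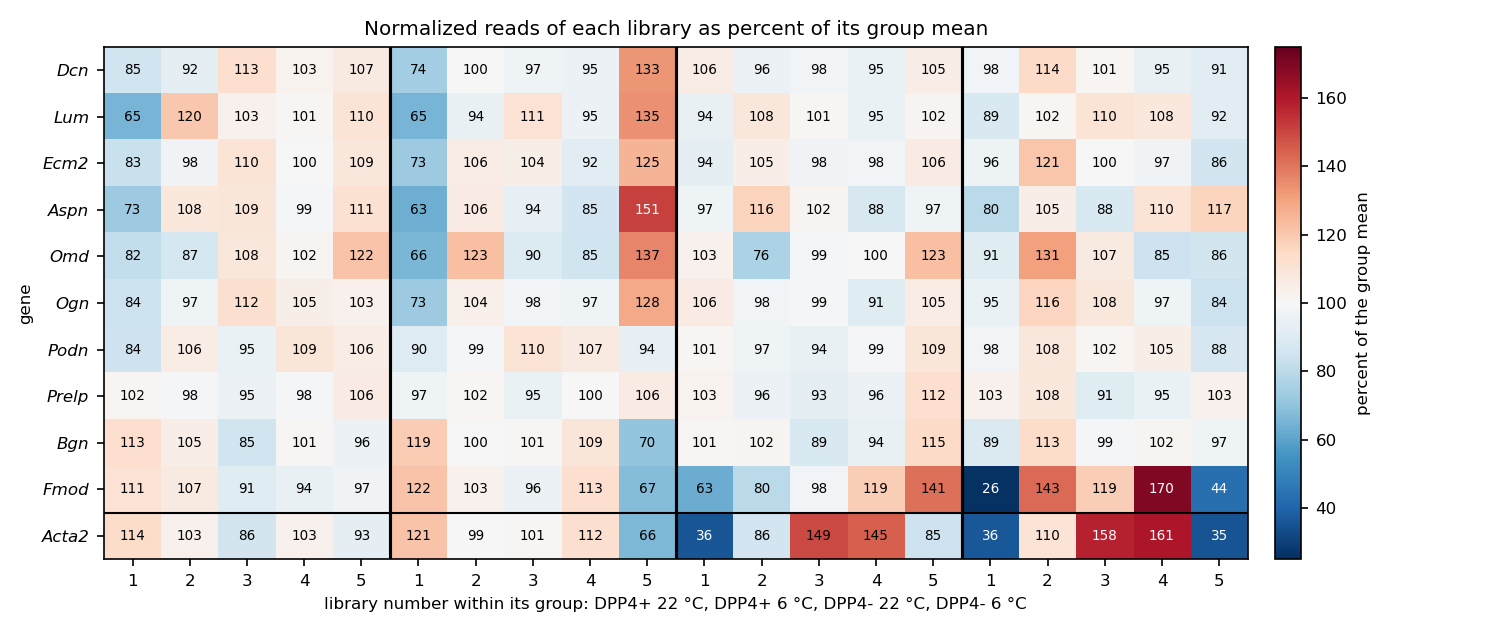
Rows are the 10 SLRP genes and, below the line, Acta2, and columns are the 20 libraries in 4 groups. Each cell gives the normalized reads of a library as percent of its group mean, and in both DPP4+ groups library 1 is low for 7 members and high for Bgn, Fmod and Acta2.

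Over the 20 libraries the levels of Lum, Ecm2, Podn and Dcn ran together, with Pearson's r on the log2 scale from 0.95 (Dcn and Podn) to 0.99 (Lum and Ecm2), and opposite to Omd, with r from -0.89 (Podn) to -0.77 (Dcn). These values rest mostly on the gap between the 2 populations, and 10.8 to 14.0% of all genes tested had an r above 0.9 with each of the 4. The genes most like Lum were Col5a3, Col6a3 and Ssc5d, with r of 0.997, 0.996 and 0.996. For Dcn they were Itm2b (0.99), C1s1 and Cyp27a1, for Podn Ctsc (0.99), Spon1 and Igsf3, and for Ecm2 Emp1 (0.99), Peli1 and Birc3. Omd ran most closely with Arhgef28 (0.97), Ntn1 and Nptn, and Prelp with Mical2 (0.97), Aldh1a1 and Rcan2. Bgn, Aspn and Ogn had no gene with r above 0.9. The closest were Comp for Bgn (0.89), Cept1 for Aspn (0.88) and Cercam for Ogn (0.90), and for Fmod the closest was Pi15 (0.91).

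Collagens form the fibrils that SLRPs coat. Of 17 genes for fibril-forming and fibril-associated collagens and collagen VI, 16 were tested. In DPP4- cells 8 were called lower, 0 higher and 8 neither, with a median log2 difference of -0.36, where 3.23% of all genes tested were called lower. Col16a1 had a log2 difference of -0.55 (adjusted p = 0.000848), Col12a1 of -0.51 (adjusted p = 0.0284), Col6a2 of -0.43 (adjusted p = 0.0138) and Col5a2 of -0.39 (adjusted p = 0.00263). The call of Col12a1 was lost without 6 of 10 libraries taken one at a time. In DPP4+ cells 7 were called lower, 0 higher and 9 neither, with a median of -0.27, where 22.6% of all genes were called lower. For the difference 1 of 16 was called, Col24a1 (-2.40, adjusted p = 0.0105), which had 3.66 ± 3.60 normalized reads in DPP4- cells at 22 °C. Between the populations at 22 °C, where 74.9% of all genes were called, 11 were lower in DPP4+ cells, among them Col5a3 (13.3-fold) and Col6a3 (7.39-fold), and 5 were higher, Col12a1 (31.4-fold), Col24a1, Col14a1, Col11a1 and Col16a1.

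Of 23 genes for the linker and for chondroitin and dermatan sulfate, the sugar chains of decorin and biglycan, 21 were tested. In DPP4+ cells 9 were called higher in the cold, 4 lower and 8 neither, with a median of 0.24, where 46.1% of all genes were called and 23.5% were called higher. In DPP4- cells limma called 0 of 21, where it called 5.22% of all genes, so 0 is near that share. At an unadjusted p under 0.05 there were 8, and edgeR called 0 and DESeq2 2. The difference of the cold effects was called as higher for 8 of 21 and lower for 2, against 16.8% and 16.4% of all genes. In DPP4+ cells Chst11, a chondroitin 4-sulfotransferase, rose 6.21-fold, from 248 ± 28.1 to 1541 ± 316 normalized reads (adjusted p = 6.25e-12). Its cold effect differed between the populations by 2.61 on the log2 scale. Xylt1, which adds the first xylose to the core protein, rose 2.44-fold, and Csgalnact1, which starts the chondroitin chain, 1.62-fold. The 4 that fell were Dse, the epimerase that makes dermatan sulfate (1.65-fold), Xylt2, Chst14 and Fam20b, the last of which was not called without 8 of 10 libraries taken one at a time. At 22 °C Chst11 and Xylt1 were 4.15-fold and 2.28-fold lower in DPP4+ than in DPP4- cells.

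For keratan sulfate, which lumican, fibromodulin and osteomodulin can carry, 6 of 9 genes were tested, and 4 of the 6 were called in the cold in DPP4+ cells, against 46.1% of all genes. There B4galt1 (1.71-fold) and Fut8 rose and Chst2 and B4galt4 fell in the cold. In DPP4- cells limma called 0 of 6, against 5.22% of all genes (1 at an unadjusted p under 0.05, 0 by edgeR and 1 by DESeq2). Chst1, a keratan sulfate sulfotransferase, had a level in DPP4+ cells at 22 °C that was 48.2-fold that in DPP4- cells (501 ± 58.7 against 10.4 ± 1.85 normalized reads). Chst2 and B4galt4 were also higher and B3gnt2 and B4galt1 lower, in a comparison that called 74.9% of all genes. Of the 7 genes for tyrosine sulfation and the sulfate donor, Tpst1 was 3.11-fold lower and Tpst2 1.87-fold higher in DPP4+ cells at 22 °C. Papss1 was also called higher, and Slc26a2, Papss2 and Slc35b3 were called lower, against the same 74.9% of all genes called. With totals set equal Slc26a2, Papss2 and Slc35b3 were not called (-0.15, -0.21 and 0.19 on the log2 scale), and Slc35b3 turned direction. In the cold Slc35b3 and Tpst2 rose and Papss1 and Papss2 fell in DPP4+ cells, against 46.1% of all genes called. In DPP4- cells limma called 0 of 7, against 5.22% of all genes (3 at an unadjusted p under 0.05, 0 by edgeR and 0 by DESeq2).

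Of 15 proteases and helpers known to cleave or process SLRPs, 11 were tested, and 7 were called in the cold in DPP4+ cells (46.1% of all genes) and 10 between the populations at 22 °C (74.9% of all genes). In DPP4+ cells 5 rose in the cold, Tll1, a relative of the protease that trims procollagen and the biglycan propeptide (13-fold, from 95.9 ± 23.1 to 1249 ± 183 normalized reads), Adamts4 (1.82-fold), Mmp2 (1.4-fold), Bmp1 and Mmp14, and Adamts5 (1.67-fold) and Pcolce fell. In DPP4- cells 1 was called, against 5.22% of all genes. It was Pcolce, which fell (log2 difference -0.31, adjusted p = 0.0185). Adamts4 and Mmp3 were 16.8-fold and 10.1-fold lower in DPP4+ cells at 22 °C, with 7 called lower and 3 higher (Adamts5, Pcolce2 and Bmp1).

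Among 19 growth factors and receptors that SLRPs bind, 17 were tested, and 7 were called in the cold in DPP4+ cells, which is no larger a share than the 46.1% of all genes. In DPP4+ cells Tgfb1 (1.83-fold), Kdr and Lrp1 rose in the cold, and Tgfb3 (2.01-fold), Ctgf (3.37-fold), P2rx7 and Egfr fell. In DPP4- cells limma called 0 of 17, against 5.22% of all genes (5 at an unadjusted p under 0.05, 0 by edgeR and 3 by DESeq2). Between the populations at 22 °C, 4 of 17 were called higher and 8 lower in DPP4+ cells, where 74.9% of all genes were called. Tlr2, a receptor of biglycan, stood 6.57-fold higher in the DPP4+ population, with Tlr4, Ctgf and Tgfb2 also higher. Egfr, which decorin binds, was 2.44-fold lower, 1 of the 8 called lower. Of 24 other proteoglycan genes, 19 were tested, and in DPP4+ cells 5 rose (Vcan, Sdc1, Gpc1, Srgn and Prg4) and 5 fell (Cspg4, Gpc4, Sdc2, Gpc6 and Sdc4), against the same 46.1% of all genes. Vcan encodes versican, a large chondroitin sulfate proteoglycan. Its normalized reads rose 3.42-fold in the DPP4+ population, from 7856 ± 615 to 26830 ± 4722, and fell in DPP4- cells from 8659 ± 698 to 5955 ± 1119 (log2 difference -0.56, adjusted p = 0.00807). The difference of its cold effects was 2.31 (SE 0.17, adjusted p = 4.00e-10). With Vcan, Sdc2 fell in DPP4- cells (-0.34, adjusted p = 0.0166). Of 10 further genes of the wider family 5 were tested. In DPP4+ cells, where 46.1% of all genes were called, Tsku rose in the cold (1.25-fold) and Lrrc15 and Lrrc17 fell. The call of Lrrc17 was lost without 6 of 10 libraries taken one at a time. Of this list limma called 0 of 5 in DPP4- cells, against 5.22% of all genes (3 at an unadjusted p under 0.05, 0 by edgeR and 1 by DESeq2). At 22 °C, where 74.9% of all genes were called, Chad was 10.4-fold lower and Lrrc15 higher in DPP4+ cells.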

How the data were processed

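RNA of 20 sorted libraries was sequenced, and the authors deposited 1 table of normalized read counts, a signal in which the reads of each gene had been divided by a size factor per library. Per the submitters' processing notes, Trim Galore 0.4.1, HISAT2 2.0.1, featureCounts 1.4.6, DESeq2 1.6.3 and the builds GRCm38 and mm10 were used. The annotation and the strand setting are not given in the sources used here. All values (100.0%) came out as whole reads within 0.1 of a read once each library's step was found, which gave 8.49 to 18.8 M reads per library. The number of reads and of libraries limits the precision. Of 27179 genes, 958 had no symbol (0.0610 to 0.0824% of reads), and 26 symbols that had been turned into dates were restored.

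Genes with a mean of 10 or more normalized reads were tested with limma 3.58.1 in R 4.3.3 on log2(value + 1), with 4 group means, 16 residual degrees of freedom, and trend and robust estimation. All 4 groups share 1 moderated estimate of the spread of a gene, so its SE in a contrast is not that of the groups compared alone. Log2 differences are on that scale and understate changes of low genes, while folds are ratios of group means. Of 5 contrasts, 2 compared 6 °C with 22 °C (1 per population), 1 tested whether those effects differed, and 2 compared the populations (1 per temperature). P-values were adjusted by Benjamini-Hochberg over all genes tested, with 0.05 as the threshold. The tests were fitted to values that are not counts. edgeR 4.0.16 and DESeq2 1.42.0 were run on the recovered reads as alternatives. edgeR called 3309 genes higher and 3231 lower in the cold in DPP4+ cells, 229 and 397 in DPP4- cells, 2212 and 2150 for the difference, 5057 and 4786 between populations at 22 °C, and 5026 and 4727 at 6 °C. Shares of a library's total were tested by exact two-sided permutation tests (scipy 1.17.1, Python 3.11.15). The other alternatives were other scalings (totals set equal, TMM, quantile), pseudocounts, filters, models and leaving out each library. The scripts were tested on simulated data.

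Positions and promoter sequences are from RefSeq (GRCm38.p6), and transcript lengths and exon overlaps from GENCODE vM21. The 10 genes and all lists were chosen with earlier results of these data known. Named were all members, up to 4 genes per list and contrast with the smallest p and a mean of at least 50 in the higher group, and the 3 genes most alike to each member. Others, such as the full names behind a small count, were named after their values were seen. Lists of markers of other cell types were summed per library.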

Additional observations from a re-analysis of the deposited data

Results flagged for a closer look

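The cold effect differed between DPP4+ and DPP4- cells, by limma's test of the difference itself, in 13 of the genes for which that difference is reported. Over all genes tested 33.2% were called in this test. Some of the 13 were named after their values were seen, so their count is not a result about these genes as a set. The difference, DPP4+ minus DPP4- on the log2 scale, was 0.80 for Aspn, 0.79 for Omd, 0.47 for Ogn and 0.41 for Ecm2, the 4 SLRP genes of chromosome 13, with the calls of Ecm2 and Ogn lost under 19 and 5 of 32 alternatives. It was -1.11 for Cenpp, which encloses them. Of the other genes, Chst11 had a difference of 2.61, Vcan of 2.31 and Col24a1 of -2.40, and among neighbours of the SLRP genes it was 0.72 for Atp2b4, 0.67 for Card19, 0.39 for Zbed6, 0.37 for Zc3h11a and 0.25 for Tmem183a. In a screen of the 10 SLRP genes in 4 groups of 5 libraries for a single library far from the others, 0 of 40 passed Dixon's 95% critical value, where chance passes about 1 in 20.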

How the results depend on the processing

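Each result was recomputed under other scalings, pseudocounts, filters, models and tools and without each library. With totals set equal, cold called 915 genes higher and 227 lower in DPP4- cells, with 3 SLRP genes lower. The difference called 1128 genes higher, with 2 SLRP genes higher and 2 lower. DPP4+ against DPP4- cells gave 9107 genes higher and 2039 lower at 22 °C, with 4 SLRP genes higher, and 8240 and 2461 at 6 °C. TMM scaling left 3 SLRP genes lower in the cold in DPP4- cells and 2 higher for the difference. Quantile normalization called 277 genes lower in the cold in DPP4- cells, with 2 SLRP genes lower, gave 1 higher and 2 lower for the difference, and 4 higher and 3 lower between populations at 22 °C. In the cold in DPP4- cells, 3 SLRP genes were lower with no filter, 2 with no trend or robust estimation and 2 with sample weights. DESeq2 gave 8 there, and over all genes it called 580 lower and 323 higher. In the same contrast 102 genes were higher when only the groups compared were fitted and 147 with sample weights. Counts of all genes are not printed for every setting, and SLRP counts without them cannot be set against a share. In DPP4+ cells sample weights gave 5 SLRP genes lower. The causes were not tested.

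Some small values changed sign. The difference for Lum was -0.11 with totals set equal, -0.021 with TMM, -0.18 with quantile normalization and -0.062 with sample weights. With totals set equal the population difference at 22 °C was 0.23 for Bgn, 0.13 for Pdgfrb and 0.19 for Slc35b3, and 0.25 for Bgn at 6 °C. With quantile normalization it was 0.020 for Dcn and 0.39 for Bgn at 22 °C and 0.44 for Bgn at 6 °C, the cold effect was -0.031 for Ecm2 in DPP4+ and 0.042 for Dcn in DPP4- cells, and the difference for Dcn was -0.23. Sample weights gave -0.0048 for Aspn between populations at 6 °C. As a share of the total without the 50 highest genes, Ecm2 was at -0.01 in the cold in DPP4+ cells and Bgn at -0.0164 between populations at 22 °C.

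Without single libraries, the SLRP genes called lower in the cold ranged from 2 to 5 in DPP4+ and from 2 to 7 in DPP4- cells, and those called for the difference from 2 to 4. Genes called higher in the cold in DPP4- cells ranged from 163 (without library 3 at 6 °C) to 343. The cold effect in DPP4+ cells ranged from -0.17 to 0.040 for Dcn and from -0.035 to 0.16 for Ecm2 (as a share from -0.052 to 0.10), the difference for Lum from -0.12 to 0.18, and Aspn at 6 °C from -0.15 to 0.17. The calls of Lrrc17 and Pcolce in DPP4+ cells were lost without 6 and 5 of 10 libraries.

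The libraries carry numbers 1 to 5 in each group, and the labels do not say what a number shares. Same-numbered libraries correlated at 0.017 to 0.156 between the populations at 1 temperature (above 0 in 10 of 10, above 0.1 in 4 of 10, own number best in 6 of 10). Between the temperatures they correlated at -0.228 to 0.267 (above 0 in 7 of 10, above 0.1 in 4 of 10, own number best in 5 of 10). These values do not settle whether same-numbered libraries share a source, and the main fits did not take the numbers as pairs. With a replicate block, cold called 3053 genes higher and 2960 lower in DPP4+ cells (4 SLRP genes lower), 270 and 439 in DPP4- cells (6 lower), the difference 2192 and 2125 (4 higher), and the populations 5042 and 4728 at 22 °C and 5034 and 4660 at 6 °C. Depth limits Fmod and Omd most, the SLRP genes with the lowest levels.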
